A study of Mus musculus with 8 samples.

Results

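The cytosolic ribosomal protein genes are described here in sorted mouse brain microglia and in macrophages of bone-marrow origin. Members were the rows of the gene table whose symbol is Rps or Rpl followed by digits, then optionally a, x or l and further digits. This rule found 79 of 23413 genes, of which 31 encode small-subunit (Rps) and 48 large-subunit (Rpl) proteins. Among the 79 members, 6 carry the name of a paralogue (Rpl3l, Rpl7l1, Rpl10l, Rpl22l1, Rpl39l and Rps27l). The rule leaves out ribosomal proteins under other names, such as Rplp0, Rpsa and Fau, which were followed as a separate list. The rule uses no expression value.

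RNA was sequenced from 3 libraries of repopulating microglia (strain label DTRmg), 3 of bone-marrow macrophages (DTRmg) and 2 of wild-type microglia (DTR). The treatment text is the same for all 8 libraries: subcutaneous tamoxifen (2 mg, at postnatal days 12 and 14), then 500 ng diphtheria toxin into the peritoneum for depletion, which kills cells carrying its receptor. That text does not say which animals of which group received which agent, and the labels name neither the Cre driver nor the age at sorting. Every wild-type library has the strain label DTR and every other library DTRmg, so strain label and group cannot be told apart. The labels do not state whether libraries of a group came from separate animals, so p-values measure the spread between these libraries, which may be technical. The bone-marrow libraries carry the same text on brain dissociation, and the labels do not say where those macrophages were collected.

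A ribosome is built from a small subunit, which reads the messenger RNA, and a large subunit, which joins amino acids and releases the growing chain through a tunnel. Each subunit needs its proteins in nearly equal numbers, and the genes for them are usually expressed together. Their messenger RNAs, called TOP mRNAs, begin with a run of C and T (U in RNA), through which the kinase mTOR and the protein Larp1 control their translation and stability. Short intron-less copies of these genes, mostly processed pseudogenes, are scattered over mammalian genomes, and reads that match several copies can be discarded or misplaced by an aligner.

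The start sites of a few members are shown for the pyrimidine run by which TOP mRNAs are known, in members with and without one. Each line gives 30 bases before and 20 bases from the start that RefSeq annotates on build GRCm38.p6, 5′ to 3′ on the gene's strand, with capitals marking the longest run of at least 8 C or T. Rpl35 (chr2:39005112-39005161, minus strand), Rpl4 (chr9:64173357-64173406, plus), Rps6 (chr4:86857348-86857397, minus), Rps9 (chr7:3704011-3704060, plus), Rpl13a (chr7:45128726-45128775, minus) and Rpl22l1 (chr3:28805478-28805527, plus) hold such a run. Rpl7l1 (chr17:46782637-46782686, minus) and Rps2 (chr17:24720033-24720082, plus) hold none in this window, and neither do other members such as Rpl10, Rpl23 and Rps4x.
Rpl35: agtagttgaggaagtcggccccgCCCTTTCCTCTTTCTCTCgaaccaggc
Rpl4: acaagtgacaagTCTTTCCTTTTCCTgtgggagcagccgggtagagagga
Rps6: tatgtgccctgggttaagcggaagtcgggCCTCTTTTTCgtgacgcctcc
Rps9: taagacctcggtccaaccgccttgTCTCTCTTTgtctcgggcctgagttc
Rpl13a: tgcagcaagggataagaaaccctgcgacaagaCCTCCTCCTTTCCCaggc
Rpl22l1: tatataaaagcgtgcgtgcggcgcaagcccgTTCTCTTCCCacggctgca
Rpl7l1: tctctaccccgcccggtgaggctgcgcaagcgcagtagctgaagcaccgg
Rps2: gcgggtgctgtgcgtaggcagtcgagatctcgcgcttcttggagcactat

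RefSeq starts were at hand for 60 of the 79 members. Within 25 bases on either side of a start, 32 of these 60 genes (53.3%) had a run of at least 8 pyrimidines on the gene's strand, against 23.2% of 8629 tested genes with a start. CCGGAAG on either strand, a motif read by ETS factors, was found within 250 bases before to 50 bases after the start in 24 members (40.0%) and in 21% of those tested genes. AAGATGGC on either strand, read by the factor Yy1, was found in 6 members (10%) and in 5.72%. A match describes letters only, and an annotated start can lie some bases from the one that cells use.

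Libraries held 5918944 to 12476427 reads assigned to genes. Microglial identity was checked with listed markers: Sall1, a transcription factor of microglia, stood at 1864 to 6101 normalised counts in repopulating and 3180 to 4056 in wild-type microglia, and at 9.55 to 35.8 in bone-marrow macrophages. Summed over 8 listed microglial markers, levels were 239900 to 280500 in repopulating microglia and 92510 to 103100 in bone-marrow macrophages, against 368900 to 404200 in wild-type microglia, so the repopulating libraries were all below both wild-type libraries. The microglial receptor P2ry12 stood at 27059 to 36757 in repopulating and 68682 to 75180 in wild-type microglia, and Tmem119, a surface protein of microglia, at 19383 to 29806 and 33850 to 36041. The part of these lower marker levels in the differences below was not tested. The bone-marrow libraries still held P2ry12 at 2960 to 4044 normalised counts and Tmem119 at 9461 to 11341. Summed markers of monocytes and macrophages were at 54470 to 58700 in bone-marrow macrophages, below both microglial groups. They were at 92250 to 129500 in repopulating and 97660 to 106100 in wild-type microglia. Summed markers of neutrophils were at 1540 to 2816 normalised counts in repopulating microglia and 748 to 1252 in bone-marrow macrophages, against 24310 and 26490 in wild-type microglia, with none of the 7 markers at 0 in every library. Ly6c2, a listed monocyte marker, stood at 1365.5 and 857 in wild-type microglia, against 11.8 to 23.6 in repopulating and 67.0 to 94.3 in bone-marrow libraries. Ccr2, another, stood at 911 and 949, against 94.4 to 363 and 917 to 1386. Summed endothelial markers were at 353.7 and 518.5 in wild-type microglia, against 52.9 to 285.6 and 42.05 to 61.5. From the list of monocytes and macrophages only Ly6c2 and Ccr2 are shown singly, and its sum in wild-type microglia lay within the range of repopulating microglia. The part of these neutrophil, Ly6c2, Ccr2 and endothelial levels in the differences below was not tested. In bulk samples such as these, a change in the mix of cells and a change in RNA per cell cannot be told apart.

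Repopulating microglia 3 stood apart from the other 2 libraries of its group before any test. It correlated with them at r = 0.938 and 0.918 over all tested genes, against 0.979 between repopulating microglia 1 and 2. Among 1017 other tested genes with transcripts under 1000 bases, a length class that includes many ribosomal protein messages, 775 were lower in repopulating microglia 3 than in the mean of 1 and 2, with a median log2 difference of -0.43, against -0.02 over all tested genes. Short transcripts also differed between the wild-type libraries: 777 of those 1017 genes were higher in wild-type 1 than in wild-type 2 (median 0.21). Counts of members called are therefore also given without repopulating microglia 3. For the comparisons of repopulating microglia they are also given with the trend on transcript length removed. Values of single genes are from the fits on all 8 libraries, without that removal.

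Ribosomal protein genes took more of each repopulating and bone-marrow library than of either wild-type library, and both subunits shared in the excess. Small-subunit members held 4.19%, 4.22% and 2.67% of normalised counts in repopulating microglia 1 to 3 and 3.92%, 3.73% and 3.86% in bone-marrow macrophages 1 to 3, against 2.31% and 2.00% in wild-type microglia 1 and 2. Large-subunit members held 4.97%, 5.04% and 3.36% in repopulating microglia and 4.91%, 4.72% and 4.89% in bone-marrow macrophages, against 2.58% and 2.27% in wild-type microglia. In both subunits every repopulating and every bone-marrow library lay above both wild-type libraries, and repopulating microglia 3 lay between the groups. Over all members the mean share was 8.15% ± 1.83 in repopulating microglia and 8.68% ± 0.205 in bone-marrow macrophages (SD, n = 3 each), against 4.58% ± 0.448 in wild-type microglia (SD, n = 2). The ratio of means was 1.78 for repopulating over wild-type, 1.90 for bone-marrow over wild-type, and 0.939 for repopulating over bone-marrow, where the groups overlapped.

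**Figure D1:**
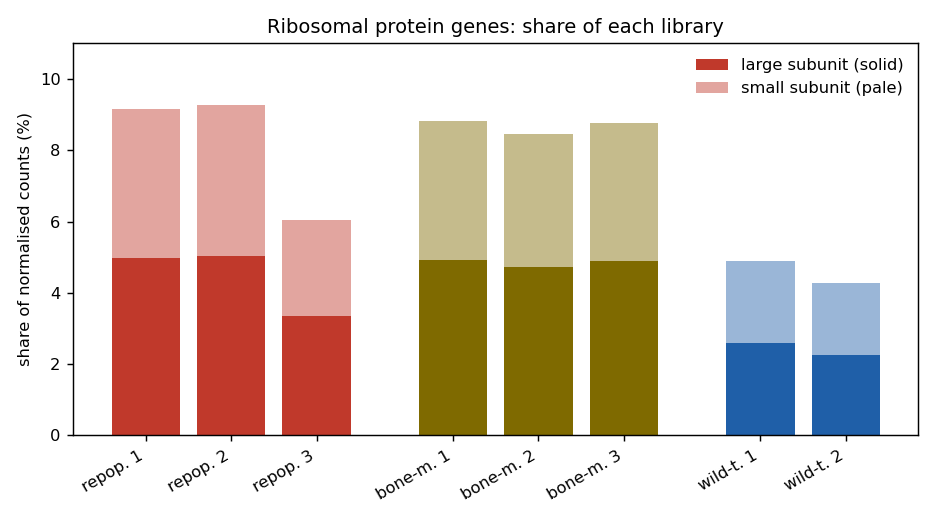
Share of each library's normalised counts (%, vertical axis) taken by large-subunit members (solid, lower bar) and small-subunit members (pale, upper bar) in each of the 8 libraries. Repopulating microglia 1 and 2 and the 3 bone-marrow libraries reach 8.45% to 9.26%, repopulating microglia 3 reaches 6.04%, and the wild-type libraries 4.90% and 4.26%.

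The balance between subunits moved less than their total. Small-subunit counts per large-subunit count were 0.843, 0.837 and 0.795 in repopulating microglia and 0.798, 0.790 and 0.789 in bone-marrow macrophages, against 0.896 and 0.881 in wild-type microglia. Every repopulating and bone-marrow library was thus below both wild-type libraries in this ratio. Repopulating microglia 3 fell within the range of the bone-marrow libraries, while repopulating microglia 1 and 2 lay above it.

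Related gene sets did not all follow. The 8 other cytosolic ribosomal proteins held 1.41%, 1.49% and 0.952% of repopulating libraries and 1.36%, 1.26% and 1.38% of bone-marrow libraries, against 0.744% and 0.637% of wild-type libraries, the same order as the members. Mitochondrial ribosomal protein genes, which serve the separate ribosome inside mitochondria, held 0.177%, 0.209% and 0.152% in repopulating microglia and 0.268%, 0.245% and 0.264% in bone-marrow macrophages, against 0.200% and 0.181% in wild-type microglia. For the mitochondrial set the repopulating libraries overlapped the wild-type libraries, and the bone-marrow libraries were above both. Genes of ribosome biogenesis, the nucleolar factors that assemble subunits, held 0.168%, 0.177% and 0.169% in repopulating microglia and 0.287%, 0.266% and 0.274% in bone-marrow macrophages, against 0.135% in both wild-type libraries.

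In repopulating against wild-type microglia, 30 of 76 tested members were higher and 0 lower, with a median log2 fold change of 0.91 over tested members and -0.02 over all tested genes. The test was limma with a variance trend on log2(normalised count + 1), fitted to 11415 genes in all 8 libraries, with two-sided Benjamini-Hochberg adjusted p below 0.05. Of all tested genes 4.86% were called higher and 3.75% lower in this comparison. Among the 30 calls, 8 were of 31 small-subunit members and 22 of 45 large-subunit members. Groups did not overlap, with the 3 repopulating libraries above both wild-type libraries, for 57 tested members, against a background of 18.5% of tested genes. For 1 tested member, Rpl7l1, they were below both (22% of tested genes).

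How many members were called depended on single libraries. Without repopulating microglia 3, 71 members were higher (15.0% of all tested genes); without wild-type 1 or without wild-type 2, which leaves 1 wild-type library assumed to vary like the other groups, 0 were called, though the median log2 fold change remained at 1.07 and 0.75 (0.336% and 0.657% of all tested genes were called higher). The count was 8 without repopulating microglia 1 and 20 without repopulating microglia 2 (2.13% and 4.46% of all tested genes). It was 17, 17 and 18 without bone-marrow macrophages 1, 2 and 3, which enter only through the shared spread (2.46%, 2.51% and 2.55%). With the trend on transcript length removed from each library, 68 were higher, with a median of 1.01 (7.24% of all tested genes).

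**Figure D2:**
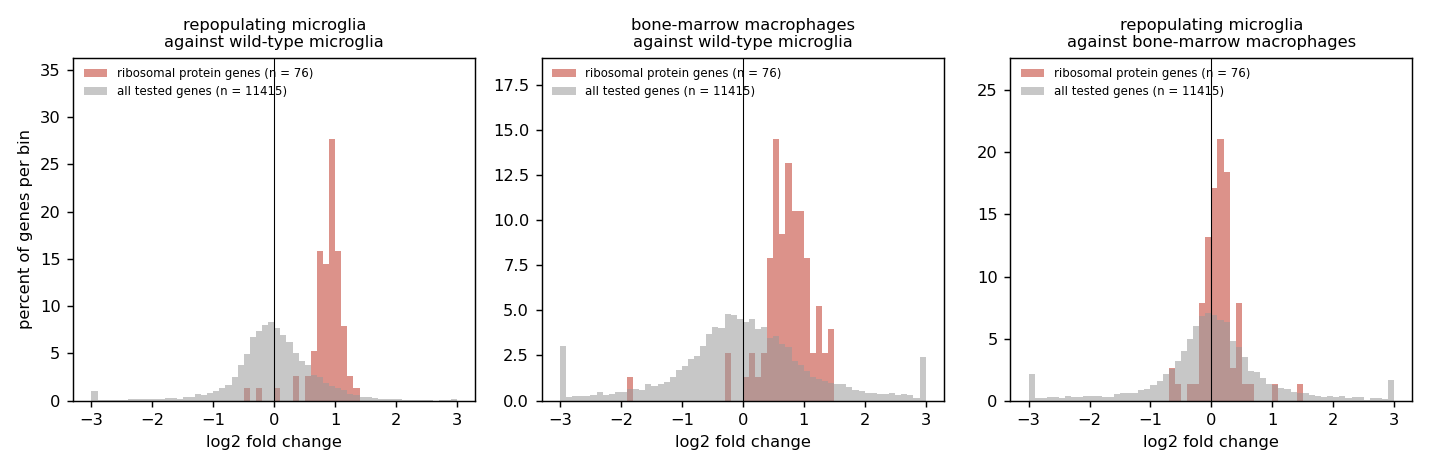
Log2 fold changes (horizontal axis, values beyond 3 in either direction collected in the end bins) of 76 tested ribosomal protein genes and of all 11415 tested genes, as percent of genes per bin (vertical axis), in the 3 comparisons. The members' medians are 0.91, 0.79 and 0.12 in the panels from left to right, and the medians of all genes are close to 0.

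Around the peptidyl transferase centre, where peptide bonds form, 3 of 4 listed members were higher. The wider counts were 22 of 45 large-subunit members and 4.86% of all tested genes. Rpl4 had the smallest adjusted p of all members in this comparison. Rpl4, a large-subunit protein that lines the exit tunnel (gene at chr9:64173375-64178666, 10 exons), stood at 12700.5, 12901 and 10355 normalised counts in repopulating microglia and at 15226, 14616 and 14706 in bone-marrow macrophages, against 6134 and 5192 in wild-type microglia. All 3 groups were apart, with bone-marrow macrophages highest and wild-type microglia lowest. Its log2 fold change in repopulating against wild-type microglia was 1.08 ± 0.15 (SE; limma adjusted p = 0.00676). Rpl3, which reaches into the same centre, stood at 16682, 16969.7 and 10827 in repopulating microglia, against 7391 and 6395 in wild-type microglia. Its 3 repopulating libraries lay above both wild-type libraries, with a log2 fold change of 1.08 ± 0.21 (SE; limma adjusted p = 0.0187). Rpl8, the third called, had a limma adjusted p of 0.0414, and the fourth, Rpl10, which contacts the P-site transfer RNA, had a fold change of 0.86 that did not pass (limma adjusted p = 0.0693).

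Several members at the tunnel exit, where the new chain meets its chaperones, were higher as well. Rpl35 stood at 7437, 7201 and 4384 normalised counts in repopulating microglia and 6022, 5994 and 6421 in bone-marrow macrophages, against 3002 and 2293 in wild-type microglia. Its repopulating libraries were all above wild type, and repopulating microglia 3 was the lowest of them, below each bone-marrow library (log2 fold change 1.23 ± 0.23, SE; limma adjusted p = 0.0179). Rpl19 stood at 14749, 13738 and 9373 in repopulating microglia, against 6078 and 5136 in wild-type microglia, again without overlap (1.15 ± 0.20, SE; limma adjusted p = 0.0143). In this list 3 of 7 tested members were higher, the third being Rpl31, and 0 were lower. That share was close to the 22 of 45 of all large-subunit members (background 4.86% of all tested genes). The eighth, Rpl26, had too few counts to be tested.

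Of 3 listed members that bind Mdm2, the inhibitor of p53, 2 were higher. Among all large-subunit members it was 22 of 45, and among all tested genes 4.86%. Rpl5 and Rpl11 bind Mdm2 together with the 5S ribosomal RNA, and Rpl23 outside that particle. Rpl11 and Rpl23 were higher (limma adjusted p = 0.0133 and 0.0164), Rpl11 with a log2 fold change of 1.05. Rpl23 stood at 14211, 13503 and 8947 normalised counts in repopulating microglia, against 6016 and 4937 in wild-type microglia. Rpl5 had a fold change of 0.89 and did not pass (limma adjusted p = 0.057). Its libraries did not overlap, at 15797, 15613 and 8998 normalised counts in repopulating microglia, against 7391 and 6733 in wild-type microglia.

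Other large-subunit members had the highest fold changes of the comparison. Rpl32 stood at 14268, 14068 and 7288 normalised counts in repopulating microglia and 10520.5, 10498 and 10922 in bone-marrow macrophages, against 4881 and 4070.1 in wild-type microglia, a log2 fold change of 1.35 ± 0.28 (SE; limma adjusted p = 0.0223). Rpl10a, a protein of the stalk that releases used transfer RNA, stood at 9941, 10257 and 4684 in repopulating microglia, against 3615 and 2793 in wild-type microglia (1.30 ± 0.31, SE; limma adjusted p = 0.0391). In both genes repopulating microglia 3 lay above both wild-type libraries and far below repopulating microglia 1 and 2. Rpl41, among the shortest proteins known, had a fold change of 1.19 (limma adjusted p = 0.0206). Rpl13a, which in human monocytic cells can leave the ribosome to silence inflammatory messages, stood at 19393, 18711 and 12658 in repopulating microglia, against 9157 and 7443 in wild-type microglia (1.01 ± 0.21, SE; limma adjusted p = 0.0224).

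Among small-subunit members, Rps6, the substrate of the S6 kinases below mTOR, stood at 16795, 16652 and 12110.0 normalised counts in repopulating microglia, against 8852 and 7201 in wild-type microglia (log2 fold change 0.91 ± 0.18, SE; limma adjusted p = 0.0219). Rps9 stood at 25802, 23595 and 18452 in repopulating microglia and 15174, 15049.5 and 17739 in bone-marrow macrophages, against 13105 and 10793 in wild-type microglia (0.91 ± 0.19, SE; limma adjusted p = 0.0234). In Rps9 each repopulating library lay above every bone-marrow library. In the list of proteins at the mRNA entry and decoding site, Rps15 was higher, while Rps2, Rps3 and Rps23 had fold changes of 0.80, 0.65 and 0.58 that did not pass (limma adjusted p = 0.0968, 0.139 and 0.16).

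Only 2 tested members had a fold change below 0 in repopulating against wild-type microglia, and neither passed. Rpl7l1 stood at 882, 812 and 753 normalised counts in repopulating microglia and 862, 748 and 901 in bone-marrow macrophages, against 941 and 988 in wild-type microglia. All repopulating and bone-marrow libraries were below both wild-type libraries, in contrast to most members, with log2 fold changes of -0.24 and -0.21 (limma adjusted p = 0.284 and 0.237). Rpl39l, a paralogue of Rpl39 known from mouse male germ cells, had 1.76 to 39.9 normalised counts over the 8 libraries and a fold change of -0.46 (limma adjusted p = 0.799).

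**Figure D3:**
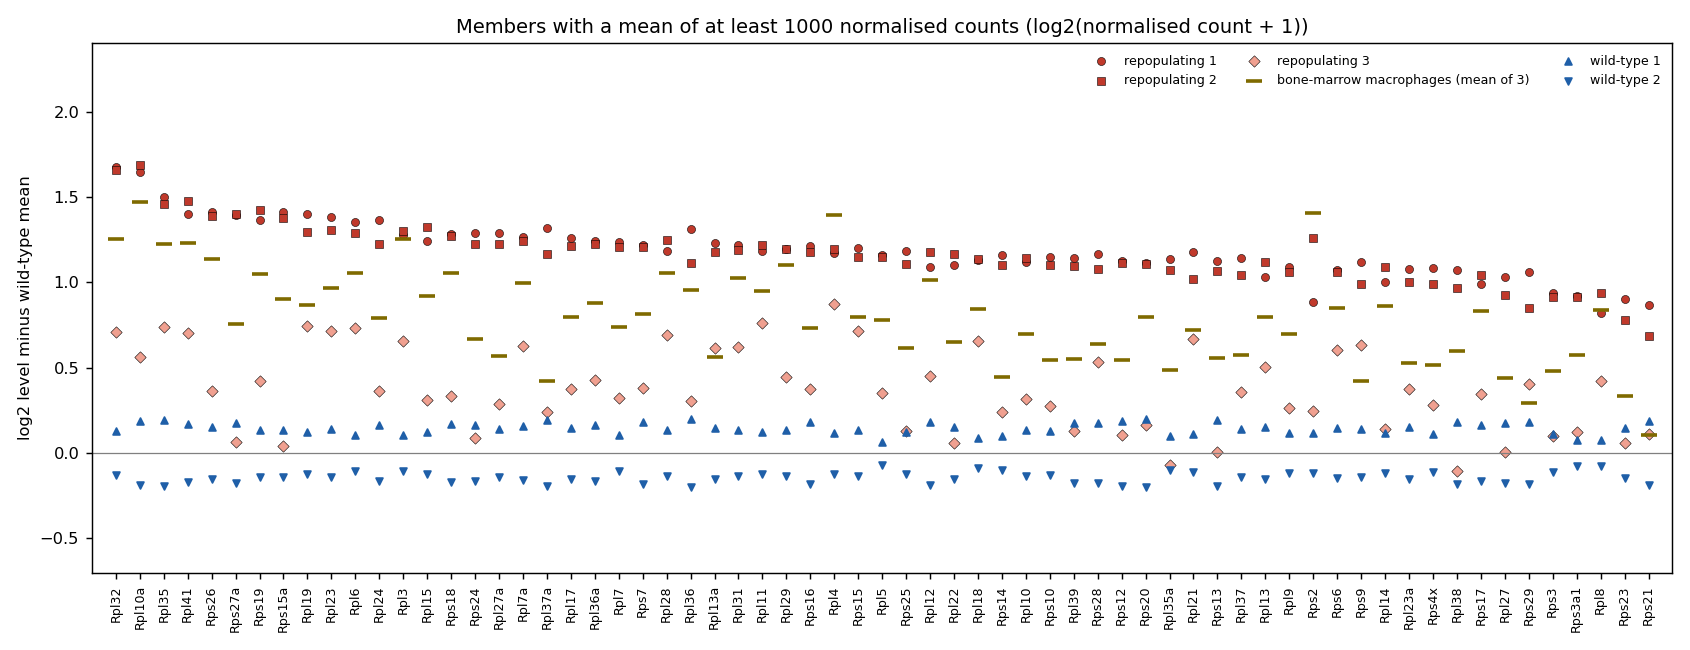
Log2(normalised count + 1) minus the mean of the wild-type libraries (vertical axis) for 65 of the 69 members with a mean of at least 1000 normalised counts, ordered by the mean of repopulating microglia 1 and 2. Repopulating microglia 1 and 2 lie together from 0.78 (Rps21) to 1.67 (Rpl32) on average. Repopulating microglia 3 lies below them, from -0.11 (Rpl38) to 0.88 (Rpl4), and for some members, such as Rpl38, Rpl22 and Rps3, within the range of the wild-type libraries.

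The lower level of repopulating microglia 3 ran through the whole family. Of 69 members with a mean of at least 1000 normalised counts, all 69 were below the mean of repopulating microglia 1 and 2, with a median log2 difference of -0.81, from -1.35 for Rps15a to -0.31 for Rpl4. The same library was above the wild-type mean for 67 of the 69, with a median of 0.37, against a median of 1.18 and 69 of 69 for repopulating microglia 1 and 2. The 2 members below the wild-type mean in that library were Rpl38 and Rpl35a. Other TOP mRNAs moved the same way in it (median -0.83, 16 of 17 lower than in repopulating microglia 1 and 2). Eif4b, an initiation factor, and Pabpc1, the poly(A)-binding protein, were nearly level over the group: Eif4b stood at 2745, 2832 and 2853 and Pabpc1 at 8958, 8529 and 8579 normalised counts in repopulating microglia 1, 2 and 3. Repopulating microglia 3 also held Mki67, a marker of dividing cells, at 79.5 normalised counts, against 2.83 and 1.48 in repopulating microglia 1 and 2. The part of transcript length, cell division or other features of that library in its lower family level was not tested.

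Wild-type libraries differed in the same coordinated way, though less. All 69 members were higher in wild-type 1 than in wild-type 2, with a median log2 difference of 0.29, from 0.13 for Rpl5 to 0.40 for Rps20. The bone-marrow libraries and the first 2 repopulating libraries agreed more closely, with medians between -0.05 and 0.03 for each pair. Wild-type 1 also held 2.16% of its normalised counts in Rn45s, the ribosomal RNA precursor, against 0.106% to 0.369% in the other 7 libraries.

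In bone-marrow macrophages against wild-type microglia, 44 of 76 tested members were higher and 0 lower, with a median log2 fold change of 0.79 against -0.01 over all tested genes. More of the background moved here: 21.3% of all tested genes were called higher and 22.2% lower. Of the calls, 13 were of 31 small-subunit and 31 of 45 large-subunit members. The 3 bone-marrow libraries lay above both wild-type libraries for 70 tested members, against 38.0% of tested genes, and below both for Rpl7l1 and Rpl39l, against 37.8%. Without wild-type 1 the count was 28 and without wild-type 2 it was 10 (12.5% and 13.3% of all tested genes were higher). It was 29, 32 and 25 without bone-marrow macrophages 1, 2 and 3 (15.0%, 16.1% and 14.9%), and 69 without repopulating microglia 3 (31.6%), which enters only through the shared spread.

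All 4 members of the peptidyl transferase list were higher in bone-marrow macrophages, with Rpl4 at 1.40 ± 0.15 (log2 fold change, SE; limma adjusted p = 0.000215), Rpl3 at 1.25, Rpl8 at 0.84 and Rpl10 at 0.70. Rpl10a had the highest fold change, with 9091, 8768 and 8561 normalised counts in bone-marrow macrophages against 3615 and 2793 in wild-type microglia (1.47 ± 0.31, SE; limma adjusted p = 0.00582). Rps2, a protein at the mRNA entry channel, stood at 15383, 13871 and 15926 in bone-marrow macrophages, against 6150.3 and 5244 in wild-type microglia (1.40 ± 0.26, SE; limma adjusted p = 0.0031). The 3 members that bind Mdm2 were all higher, with fold changes of 0.78 to 0.97. Both lists hold large-subunit members only, of which 31 of 45 were higher in this comparison, against 21.3% of all tested genes. Rpl22l1, the paralogue of Rpl22, stood at 647, 625 and 582 in bone-marrow macrophages, against 293 and 206 in wild-type microglia (1.32 ± 0.32, SE; limma adjusted p = 0.0103), whereas Rpl22 itself had a fold change of 0.65 that did not pass (limma adjusted p = 0.108).

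At the other end stood several small-subunit members. Rps21 had 4936, 4772 and 4942 normalised counts in bone-marrow macrophages, against 5156 and 3981 in wild-type microglia, so the groups overlapped (log2 fold change 0.11 ± 0.22, SE; limma adjusted p = 0.712). Rps29, a zinc-binding protein of the small subunit, had 9678, 9575 and 10636 in bone-marrow macrophages, against 9201 and 7153 in wild-type microglia (0.29 ± 0.21, SE; limma adjusted p = 0.28). Rps23, a protein of the decoding centre, had a fold change of 0.34 (limma adjusted p = 0.274). None of these was called in either comparison with wild type.

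Between repopulating microglia and bone-marrow macrophages, 0 of 76 members were called in either direction, while 16.0% of all tested genes were called higher and 14.9% lower. The median log2 fold change over tested members was 0.12. An unadjusted limma p below 0.05 was found for 9 of 76 members, against 4756 of all 11415 tested genes. With edgeR's quasi-likelihood test on recovered reads 0 members were called as well (15.2% of all tested genes higher). DESeq2 called 5 higher and 0 lower (18.2% higher). Without repopulating microglia 3 the median was 0.39 and 47 members were higher (23.5% of all tested genes), so the absence of calls rests on that library. The median was -0.13 with library totals made equal, where the median of all genes was -0.25, and -0.18 under quantile normalisation, so the median's direction depended on the scaling. Libraries were apart for 9 tested members: the repopulating libraries were all above the bone-marrow libraries for 6, among them Rpl30, Rps9, Rps27 and Rps29, and all below for Rpl4, Rps2 and Rps27l, against 23.7% of tested genes above and 22.4% below. Of these, Rpl30 (34.7 to 72.7 normalised counts in these groups) and Rps27 (9.7 to 29.3) had low counts.

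Rps2 had a fold change below 0 in this comparison that did not pass. Its normalised counts were 10483, 13596 and 6745 in repopulating microglia, against 15383, 13871 and 15926 in bone-marrow macrophages (log2 fold change -0.61 ± 0.23, SE; limma adjusted p = 0.0826). All 3 repopulating libraries lay below the bone-marrow libraries, repopulating microglia 2 by little. Among the cytosolic ribosomal proteins outside the naming rule, Fau, made as a fusion of a ubiquitin-like protein with the small-subunit protein S30, did pass, at 18097, 16216 and 12889.8 in repopulating microglia, against 9479, 9351 and 10473 in bone-marrow macrophages (0.68 ± 0.16, SE; limma adjusted p = 0.0138).

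Because the family level differs between libraries, each library was also rescaled so that the summed members were equal, and the fit was repeated on all genes to compare members within the ribosomal protein pool. Relative to the pool, Rpl32 was higher in repopulating than in wild-type microglia, by 0.43 ± 0.12 on the log2 scale (SE; limma adjusted p = 0.0197), and Rps21 and Rpl7l1 were lower, at -0.36 ± 0.13 (limma adjusted p = 0.0413) and -1.16 ± 0.23 (limma adjusted p = 0.0051). With each of the 8 libraries left out in turn, the call of Rpl7l1 was lost only without wild-type 2, that of Rpl32 without repopulating microglia 1 or 2 or either wild-type library, and that of Rps21 in all fits except that without repopulating microglia 3. Without repopulating microglia 3, 3 members were higher and 8 lower. Since this scaling moves all other genes, 0.815% of tested genes were called higher and 52.3% lower in the fit on all 8 libraries. For pool-relative fits with a library left out, shares of all tested genes are not given here. Their counts of members therefore cannot be set against a background.

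The pool differed more between bone-marrow macrophages and wild-type microglia, with 9 members higher and 9 lower (6.04% and 45.5% of all tested genes). These shares are from the fit on all libraries, and none are given for the fits below with a library left out. Among the higher members were Rpl10a, Rps2 and Rpl4, at 0.69, 0.62 and 0.61 on the log2 scale, with Rpl3, Rpl22l1, Rpl32, Rpl35 and Rpl41. Among the lower members were Rps21, at -0.67 ± 0.13 (SE; limma adjusted p = 0.00302), with Rps3, Rps14, Rps23, Rps29, Rpl30, Rpl39l and Rpl7l1. Counts were low for Rpl39l (1.76 to 22.4 in these groups) and Rpl30 (34.7 to 54.5). The calls of Rps3, Rps14, Rps23, Rpl30, Rpl22l1 and Rpl35 were lost without any 1 bone-marrow library. Those of Rpl39l and Rpl41 were lost without bone-marrow macrophages 1 or 3, and that of Rps29 without 1 or 2. Of the 9 lower members 6 were small-subunit proteins, and of the 9 higher members 7 were large-subunit proteins. Rps21 was called whichever library was left out, at -0.72 to -0.63. The counts were 16 higher and 17 lower without repopulating microglia 3, 2 and 2 without wild-type 1, and 2 and 1 without wild-type 2; 2, 3 and 3 were lower without bone-marrow macrophages 1, 2 and 3, and 5 without repopulating microglia 1.

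Between repopulating microglia and bone-marrow macrophages, pool-relative differences passed for 4 members, of which 1 was higher and 3 lower. Rps2, Rpl22l1 and Rps27l were lower, at -0.74 ± 0.13 (limma adjusted p = 0.00477), -0.64 ± 0.18 (limma adjusted p = 0.0357) and -0.83 ± 0.21 (SE; limma adjusted p = 0.0249). The background in the fit on all libraries was 7.17% of tested genes higher and 12.6% lower, and none is given for fits with a library left out. The call of Rps2 was kept whichever library was left out, at -0.85 to -0.65, whereas Rps27l was called in 4 and Rpl22l1 in 2 of the 8 fits. Without repopulating microglia 3, 8 members were higher and 10 lower; without repopulating microglia 1 or any 1 bone-marrow library, 0 were higher and 1 lower. Rps27l, a paralogue of Rps27 and a target of p53, stood at 584, 694 and 243 normalised counts in repopulating microglia, against 788, 709.5 and 748 in bone-marrow macrophages. Its repopulating libraries were all lower, repopulating microglia 3 by far the most. Rpl22l1 stood at 526, 589 and 263 in repopulating microglia and 647, 625 and 582 in bone-marrow macrophages.

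**Figure D4:**
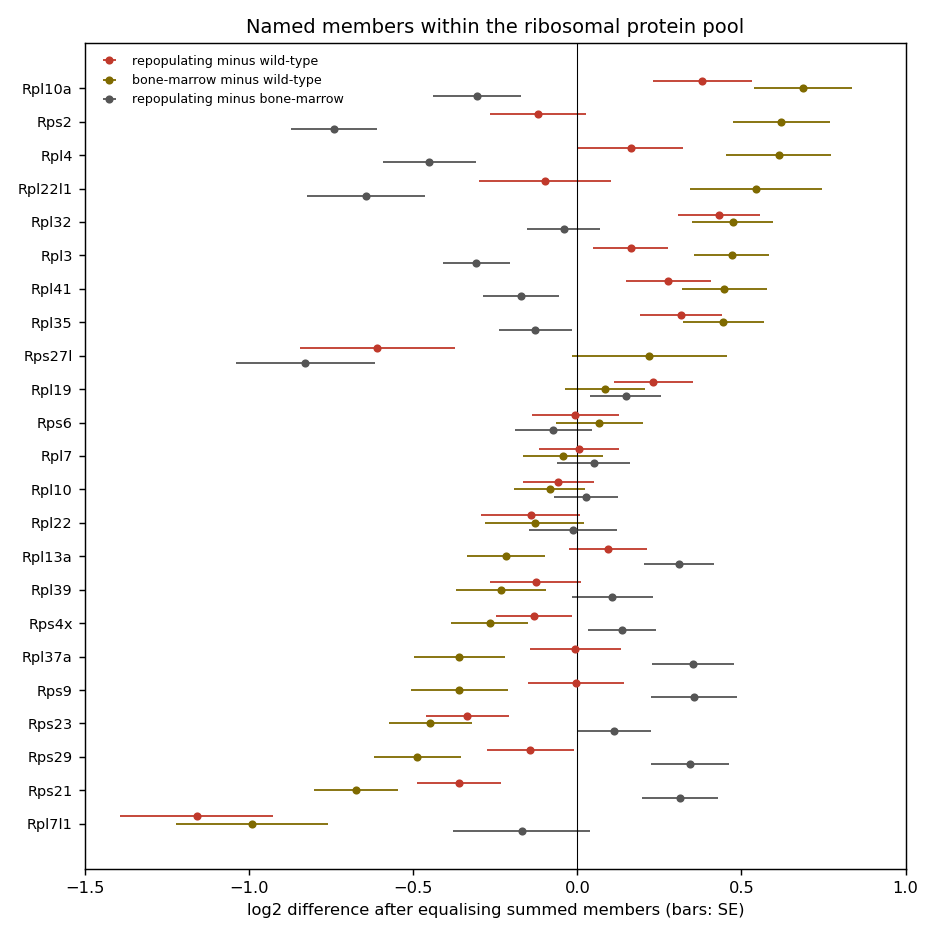
Log2 difference with its standard error (horizontal axis) after libraries were rescaled to equal summed members, for named members with a mean of at least 100 normalised counts (vertical axis, ordered by bone-marrow minus wild-type). Rpl10a leads in bone-marrow against wild-type at 0.69, Rps21 and Rpl7l1 are lowest there at -0.67 and -0.99, and Rps27l and Rps2 are lowest in repopulating against bone-marrow at -0.83 and -0.74.

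Not all members were counted at the level of their family. Rpl26 (0 to 9.55 normalised counts over the 8 libraries), Rps27 (8.13 to 29.3), Rpl34 (17.0 to 29.1) and Rpl30 (34.7 to 72.7) are standard ribosomal proteins, yet lay far below the 69 members that had at least 1000 in every library. To describe how far reads could be confused with other copies, each coding sequence of GENCODE release M21 was cut into all its 50-base words, which were searched in the transcripts of all other genes. For Rpl26, Rps27, Rpl34 and Rpl30, 87.3%, 100%, 72.2% and 83.1% of the words occurred elsewhere. This did not set them apart: 59 members shared at least 80% of their words, 30 of them all, and most of these were among the 69, such as Rps6 and Rpl10a. A pseudogene row, Rpl34-ps1, stood at 1059.7, 903 and 351 normalised counts in repopulating microglia and 608, 587 and 482 in bone-marrow macrophages, against 427 and 353 in wild-type microglia, more than Rpl34 itself in each library. None of the sources says how multiply mapped reads were counted, so the levels of members with shared words are uncertain.

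**Figure D5:**
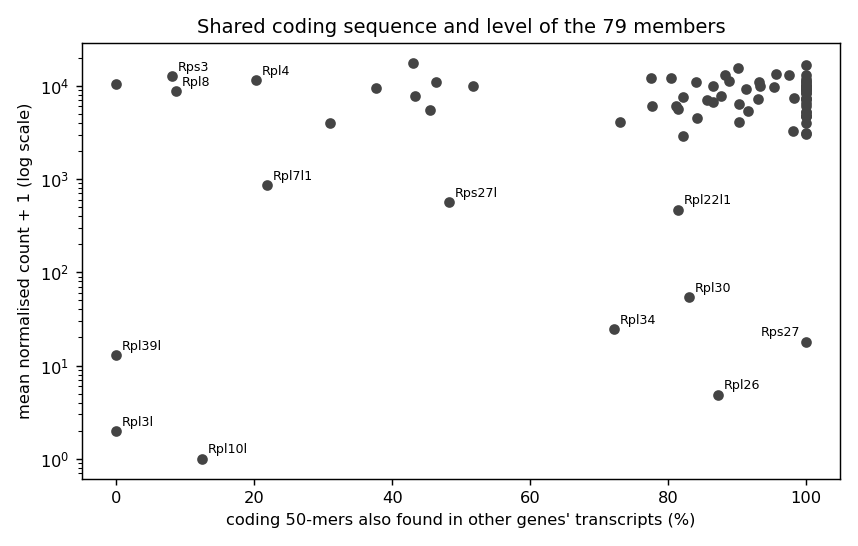
Percent of coding 50-base words that also occur in transcripts of other genes (horizontal axis) against the mean normalised count plus 1 over the 8 libraries (log scale, vertical axis) for the 79 members, 1 point each. Rpl26, Rps27, Rpl34 and Rpl30 lie below 100 counts at 72.2% to 100% shared words, and Rps3, Rpl4 and Rpl8 lie among the well-counted members with at most 20.3%.

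Members with few shared words were read separately. The 8 members with under 25% shared words held 0.612%, 0.651% and 0.454% of normalised counts in repopulating microglia and 0.710%, 0.660% and 0.712% in bone-marrow macrophages, against 0.360% and 0.326% in wild-type microglia. Of the 6 of them that were tested, 3 were higher and 0 lower in each comparison with wild-type microglia, Rpl4 and Rpl8 in both. Rps3 did not pass in either (limma adjusted p = 0.139 and 0.147), and Rpl7l1 and Rpl39l had fold changes below 0 in both that did not pass. Of the 30 members with all words shared, 12 were higher in repopulating and 20 in bone-marrow against wild-type cells (background 4.86% and 21.3% of all tested genes). The part of shared reads in the members' levels was not tested.

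In the paralogue pairs, Rpl10l and Rpl3l, known in mice from testis and from striated muscle, were at 0 in all libraries and at 0 to 4.27 normalised counts. Rps4x, the X-linked member of its pair, stood at 22871, 21452 and 13136 in repopulating microglia and 15923, 15941 and 14475 in bone-marrow macrophages, against 11666 and 10008 in wild-type microglia, with a fold change of 0.78 against wild type that did not pass (limma adjusted p = 0.0778). Its repopulating libraries nonetheless lay above both wild-type libraries. Rpl7 had fold changes of 0.92 in repopulating (limma adjusted p = 0.067) and 0.74 in bone-marrow cells (limma adjusted p = 0.0496) against wild type, in contrast to the values below 0 of Rpl7l1. Rpl39 did not pass in either comparison, at 0.79 and 0.55 (limma adjusted p = 0.124 and 0.15).

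Gene lists around the ribosome were read in the same fits. The background in repopulating against wild-type microglia was 4.86% of all tested genes higher and 3.75% lower. In repopulating against wild-type microglia, 4 of 8 other cytosolic ribosomal proteins (median log2 fold change 0.96) and 7 of 17 other TOP mRNAs (0.92) were higher and 0 of either lower, whereas 2 of 39 ribosome biogenesis genes (0.04), 0 of 76 mitochondrial ribosomal protein genes (-0.08) and 1 of 15 regulators of mTOR, TOP translation and Myc (0.22) were higher. Rplp0, of the large-subunit stalk, stood at 30551, 31613 and 17598 normalised counts in repopulating microglia and 22979, 21796 and 23777 in bone-marrow macrophages, against 11585 and 9702 in wild-type microglia (1.28 ± 0.25, SE; limma adjusted p = 0.0206). Eif4b at 1.36 ± 0.12 (SE; limma adjusted p = 0.000971) and the elongation factor Eef2 at 1.25 ± 0.18 (SE; limma adjusted p = 0.00681) led the other TOP mRNAs. The 2 biogenesis genes were Ncl, the nucleolar protein nucleolin, and Pes1, a factor of large-subunit assembly, at 1.22 and 0.78 (limma adjusted p = 0.0061 and 0.0123), and the regulator was Eif4ebp2, a brake on cap-dependent translation, at 0.68 (limma adjusted p = 0.0281).

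In bone-marrow macrophages against wild-type microglia, where 21.3% of all tested genes were higher and 22.2% lower, 20 of 39 biogenesis genes were higher and 1 lower (median log2 fold change 0.54), and 17 of 76 mitochondrial ribosomal protein genes were higher and 1 lower (0.28). The share of mitochondrial ribosomal protein genes called higher was near the background. Other TOP mRNAs gave 11 of 17 higher and 0 lower (0.92), and the regulators 7 of 15 higher and 1 lower, among them Mtor, with 226, 217 and 252 in bone-marrow macrophages, against 81.2 and 85.4 in wild-type microglia (1.46 ± 0.28, SE; limma adjusted p = 0.00369). All 10 cell-cycle markers were higher, with a median of 2.47. Repopulating microglia against bone-marrow macrophages gave 0 higher and 15 lower of 39 biogenesis genes (-0.48), 1 higher and 13 lower of 76 mitochondrial ribosomal protein genes (-0.35), and 0 higher and 10 lower of 10 cell-cycle markers (-2.29), against a background of 16.0% higher and 14.9% lower. Here too the share of mitochondrial ribosomal protein genes called lower was near the background. For comparison, Ncl stood at 1262, 1196 and 1727 in repopulating microglia and 2859, 2922 and 2787 in bone-marrow macrophages, against 556 and 629 in wild-type microglia, so that all 3 groups were apart.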

How the data were processed

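Sorted cells were profiled by RNA sequencing (TruSeq RNA v2, which does not mark strand, per the labels' protocols). The authors deposited 1 table of normalised signal, that is, gene counts divided by 1 size factor per library. Per the submitters' processing notes, the named tools were HTSeq, DESeq (1.14.0), TopHat2 (2.0.10) and Bowtie2 (2.1.0.0), with build mm10; the sources used here give neither their roles nor the annotation nor the handling of multiply mapped reads. Dividing each column by its smallest value above 0 gave whole reads for 100% of values (tolerance 0.01). The bone-marrow libraries' columns have another name than their labels and were assigned as the only group left.

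Members and lists were chosen with earlier results of these data known. The 11415 genes that reached 10 normalised counts in 2 or more libraries, including 76 of 79 members, were tested with limma 3.58.1 (R 4.3.3) on log2(normalised count + 1), with a variance trend and 1 model for all 8 libraries; Benjamini-Hochberg adjustment ran over all tested genes, two-sided, at 0.05. Fold changes are on that scale and understate changes of low genes. Named members were the 6 with the highest mean, the 6 highest and 4 lowest folds per comparison, the 4 highest and 4 lowest in the pool-relative fit (mean of at least 100), and the paralogue pairs; up to 4 genes came from each other list, by smallest adjusted p in repopulating against wild-type microglia. Some members are not reported here by name, though they stay in all counts, sums and fits. Members named beyond that rule belong to a role list or a count, and were chosen after their values were seen. Alternatives were edgeR 4.0.16 and DESeq2 1.42.0 on recovered reads, other scalings, filters and pseudocounts, a replicate block, array weights, and leaving out each library. Coordinates are from GENCODE M21, and start sequences from RefSeq on GRCm38.p6, the assembly behind mm10.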

Additional observations from a re-analysis of the deposited data

How the results depend on the processing

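Counts of members called moved with the processing. No called difference changed direction, but values that were not called did: between repopulating microglia and bone-marrow macrophages the median log2 fold change, 0.12 as reported, was -0.13 with equal library totals and -0.18 under quantile normalisation, and the share difference changed sign without repopulating microglia 3. For repopulating against wild-type microglia, 30 members were higher by the reported fit, 62 by DESeq2, 72 with array weights, 68 with the length trend removed and 0 with only those 2 groups fitted; leaving out 1 library gave 0 to 71. Without the filter on low values 1 member was lower, against 0. In bone-marrow against wild-type cells, 44 were higher, and 69 both with array weights and with only the 2 groups fitted; leaving out 1 library gave 10 to 69. There 1 was lower without the filter, with only 2 groups and with array weights, and 0 to 1 with 1 library left out. For repopulating microglia against bone-marrow macrophages, the reported fit called 0 in either direction; higher were 1 with a pseudocount of 5 or 10, 2 under quantile normalisation or without the variance trend, 5 by DESeq2, 9 with the length trend removed (2 lower) and 50 with array weights (3 lower), while equal library totals gave 4 lower and quantile normalisation 8. Leaving out 1 library gave 0 to 47 higher and 0 to 2 lower. The cause of these moves was not tested. Calls over all tested genes moved too. In repopulating against wild-type microglia 4.86% of them were higher by the reported fit, 7.24% with the length trend removed and 15.0% without repopulating microglia 3. For array weights, 2-group fits, equal totals and quantile normalisation such shares are not given here. Under those settings, moves of the members and moves over all genes cannot be told apart. The share differences of 3.57, 4.10 and -0.53 percentage points ranged from 3.02 to 4.63, 3.78 to 4.42 and -1.08 to 0.528 with 1 library left out.

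In the pool-relative fit, leaving out 1 library gave 0 to 3 higher and 0 to 8 lower in repopulating against wild-type microglia, 2 to 16 higher and 1 to 17 lower in bone-marrow against wild-type, and 0 to 8 higher and 1 to 10 lower in repopulating against bone-marrow. Scaling to the median member in place of the sum gave 16 lower in bone-marrow against wild-type and 8 higher in repopulating against bone-marrow. Shares of all tested genes called are not given for these alternative pool-relative fits.

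Deviations of same-numbered libraries from their group means correlated between -0.24 and 0.244, and those of differently numbered libraries between -0.316 and 0.316. With 2 wild-type libraries the deviations mirror each other, so these values cannot decide whether replicate numbers pair the libraries. With a replicate block, 43 members were higher in repopulating against wild-type microglia, 59 in bone-marrow against wild-type and 0 between the others. The pool-relative fit with that block called 2 higher and 1 lower in repopulating against wild-type. Shares of all tested genes called with the block are not given here.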
